A study of Mus musculus with 8 samples.

Results

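Histone genes and histone chaperones were examined in the transcriptome and translatome of mouse MII oocytes, that is, oocytes arrested at the second meiotic metaphase and ready for fertilization. The members were the genes whose symbols belong to the Hist clusters, the H1f, H2af and H3f histone families, the nucleoplasmins Npm1 to Npm3, the NAP1-like proteins, Set and the Anp32 proteins, or are Asf1, CAF-1 (Chaf1), Hira, Daxx, Atrx, Nasp or a FACT subunit (Ssrp1, Supt16), and which were listed for both total and ribosome-bound mRNA. Of 8537 genes listed in both, 29 met this rule, among them the processed pseudogene Anp32b-ps1. Another 3 genes (Hira, Hist1h4c and Hist2h3c2) were listed only for ribosome-bound mRNA and 3 (H2afy, H2afz and Hist2h4) only for total mRNA. These 6 genes were not members.

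The oocytes came from RiboTag F/F;Zp3-Cre females, in which Cre under the promoter of the oocyte gene Zp3 switches on an HA tag on the ribosomal protein RPL22 in growing oocytes, and both ages carried the same alleles. Females were 1 month old (young) or retired breeders of 12 to 15 months (old), and received 5 IU PMSG followed 48 h later by 10 IU hCG, with collection 13 h after hCG. There were 2 pools per age with 200 oocytes each, and each pool gave an HA library (mRNA that came down with tagged ribosomes) and an input library (total mRNA). Values are CPM, reads on a gene scaled to its library, and translation efficiency (TE) is HA CPM over input CPM of the same pool.

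Histones package DNA into nucleosomes. The core histones H2A, H2B, H3 and H4 form the particle and linker H1 histones bind DNA between particles. Histone chaperones carry histones that are not on DNA, deliver them to replication forks or open chromatin, and take them off again. Most histone mRNAs of the Hist clusters end in a stem-loop instead of a poly(A) tail and are bound there by SLBP, while the replacement histone genes make polyadenylated mRNA at all times. Growing oocytes store both histones and chaperones for the embryo, and after fertilization the sperm genome is packaged with histones from these stores. Because the MII oocyte does not transcribe, stored mRNA is switched on or off for translation, in part through cytoplasmic polyadenylation elements (CPEs) near the mRNA end.

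The CPE motifs TTTTAT and TTTTAAT were searched on the transcript strand in the longest annotated 3′-UTR (GENCODE M21, build GRCm38), where they were found in 16 of the 27 members with an annotated 3′-UTR (59.3%), against 5608 of 7930 genes in all (70.7%). The 3′-UTRs of the members were also shorter (median 857 bases against 1332). The motif nearest the end is shown in capitals for the members whose values are described most closely, with up to 10 bases on each side.
H1foo, chr6:115950159-115950184, plus strand: attctgaagcTTTTATtgtctaataa
Npm1, chr11:33152506-33152532, minus strand: aaactcagtaTTTTAATaaagtagcac
Atrx, chrX:105798061-105798086, minus strand: aaaagtctcaTTTTATatttgtttta
Daxx, chr17:33915571-33915590, plus strand: atgaatttctTTTTATtgta
Asf1b, chr8:83970137-83970162, plus strand: tattaaaaggTTTTATattaaaagtt
All 5 sites lie in the 3′-UTR. The site of Daxx starts closest to the end of its transcript among them, at 10 bases, and that of Asf1b starts at 51. The Atrx site starts 462 bases from the end and is the last of 7 in a 3′-UTR of 2560 bases. Npm2, Nasp, Chaf1a, Chaf1b, Hist1h1a and Anp32b, among others, held neither motif.

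The histone stem-loop was found in 3 members and in 5 of all 7930 genes (0.0631%). The hairpin is shown in capitals for these members, because most replication-dependent histone mRNAs, such as those of the Hist clusters, end in it. The search does not sort the members into mRNAs with and without a tail. Hist1h1a had no match in its 3′-UTR of 48 bases, and Hist1h2aa had no annotated 3′-UTR to search.
Hist1h1e, chr13:23621777-23621802, minus strand: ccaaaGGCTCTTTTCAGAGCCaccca
Hist1h2bj, chr13:22043633-22043658, plus strand: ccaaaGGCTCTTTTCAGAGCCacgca
H2afx, chr9:44335235-44335260, plus strand: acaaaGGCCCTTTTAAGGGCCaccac
In H2afx the hairpin starts 838 bases before the annotated end, and a CPE starts 39 bases before it. In Hist1h2bj the hairpin starts 39 bases from the annotated end, and in Hist1h1e 1169 bases from it. A motif match describes these letters and does not show that the site is used.

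Between 37817382 and 59688578 reads were counted in the HA libraries and between 38276453 and 60052814 in the input libraries. All 11 oocyte markers were listed, summing to 9335 to 10381 CPM in input and 11638 to 19418 CPM in HA. Of 16 cumulus and granulosa cell markers, 10 were listed in input (summed 36.6 and 237 CPM in old, 94.6 and 222 CPM in young pools) and 6 in HA (85.8 and 95.8 against 163 and 189 CPM), while Foxl2, Amh, Nr5a1 and Cyp11a1 were not listed, and their part in the results was not tested. Of 6 oviduct markers 1 was listed (Epcam, in input, with 57.6 CPM in old pool 1, 0.963 CPM in old pool 2 and 0.0581 and 3.29 CPM in the young pools) and of 5 blood markers 0. Genes without a read made up 2.89% and 4.11% of the HA table in the old pools, against 0.112% and 0.865% in the young pools. The scaling matters for every comparison between ages. The TMM factors recovered from the deposited HA values were 0.896 and 0.715 for the old pools and 1.30 and 1.20 for the young pools, so a gene with an equal share of the reads has a higher CPM in old oocytes. The order of the pools is therefore given below for the deposited CPM and also after each library was set to the same sum.

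Across the members, old and young oocytes did not differ in any gene after correction. With limma and Benjamini-Hochberg adjustment across each whole table, 0 of 29 members passed an adjusted p of 0.05 in input (0.0095% of all genes did), 0 in HA (0.0% of all genes) and 0 in TE (0.0% of all genes). At an unadjusted p of 0.05, limma called 1 member in input (6.18% of all genes), 1 in HA (14.7%) and 0 in TE (6.56%), and the member was Atrx both times. On recovered reads, no member had an adjusted p under 0.05 with edgeR's likelihood ratio test, where 0.475% of all genes did in input and 3.32% in HA, with edgeR's quasi-likelihood test (0.0% in both), or with DESeq2 (1.15% and 5.82%). The likelihood ratio test called 0 members in input (7.28% of all genes) and 2 in HA (Atrx and Hist1h2aa, 16.3%) at an unadjusted p of 0.05. The quasi-likelihood test called Atrx in input (5.51%) and in HA (13.5%). DESeq2 called Atrx in input (9.2%) and Hist1h2aa, lower in old oocytes, in HA (17.3%). Atrx had an unadjusted p of 0.057 with DESeq2 in HA. An exact permutation test of 2 against 2 pools cannot give a two-sided p below 0.333 and was not used. The labels name the pools as replicates and give no separate batches or days.

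The median log2 difference of the members, old minus young, was 0.09 in input (-0.03 over all genes), 0.47 in HA (-0.14 over all genes) and 0.32 in TE (-0.10 over all genes). These signs depended on the scaling. With every library set to the same sum the member medians were -0.09, -0.15 and -0.13, and the medians of all genes were -0.19, -0.68 and -0.48, so that relative to all genes the members lay 0.60 higher in HA with the deposited CPM and 0.52 higher with equal sums, and 0.13 higher after quantile normalization. Most members are abundant genes, and abundance moved with the difference. Among the 24 members averaging 10 CPM or more across the 8 libraries the HA median was 0.47, against 0.04 for the 6336 genes of such level. The 5 members under 10 CPM had a median of 0.30, against -0.86 for 2201 genes.

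**Figure D1:**
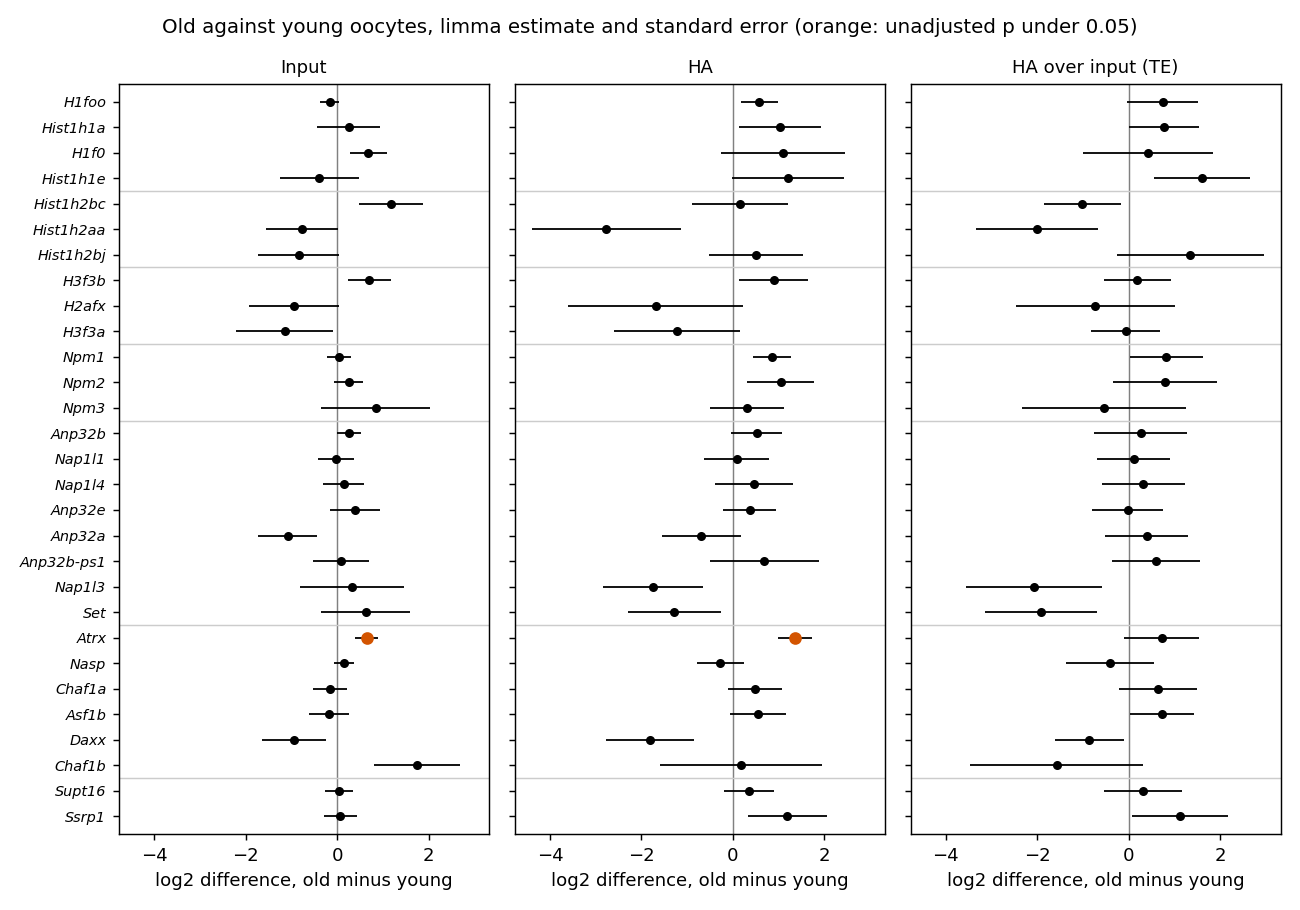
The log2 difference between old and young oocytes (horizontal axis, from log2(CPM + 1)) is plotted for the 29 members in input, HA and TE, with bars of 1 standard error of the limma fit and 2 pools per age. Only Atrx, in orange, had an unadjusted p under 0.05 (input 0.64, HA 1.36).

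Both old pools lay above both young pools for 6 members in input (16.4% of all genes did), 7 in HA (17.2%) and 6 in TE (16.7%). Both old pools lay below both young pools for 4 members in input (18.9%), 4 in HA (24.7%) and 5 in TE (22.8%). With equal sums the numbers above were 5 in input, 1 in HA and 3 in TE, where all genes gave 11.1%, 7.51% and 9.95%, and those below were 6, 8 and 7, where all genes gave 24.7%, 35.7% and 30.6%. Under both scalings, Atrx was the 1 member above in HA, and Daxx, H3f3a, Hist1h2aa and Nap1l3 were below. In input the order held under both scalings for Atrx, Chaf1b, H1f0, H3f3b and Hist1h2bc above and for Daxx, Anp32a, H1foo and H3f3a below. In TE it held for Atrx, Hist1h1a and Npm1 above and for Daxx, Hist1h2aa, Hist1h2bc, Nap1l3 and Set below. Only with equal sums were Hist1h2bj and Ssrp1 below in input, Anp32a, Hist1h2bc, Nasp and Set in HA, and H3f3a and Nasp in TE. The share of all genes that kept their order under both scalings is not given, so these names have no background beside them.

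Atrx encodes the chromatin remodeler that works with DAXX to deposit the replacement histone H3.3 at heterochromatin. In input, Atrx had 1290.1 and 1343 CPM in the old pools and 701 and 1012 CPM in the young pools. The HA libraries held 1317 and 1235 CPM in the old pools and 435 and 567 CPM in the young pools. In both fractions the old pools lay close together and above both young pools. Mean input was 1317 ± 37.4 CPM in old and 857 ± 220 CPM in young oocytes (SD, n = 2 pools), a log2 difference of 0.64 (SE 0.25), with an adjusted p of 0.778 in limma and an unadjusted p of 0.031. Mean HA was 1276 ± 57.8 CPM in old and 501 ± 93.7 CPM in young oocytes (SD, n = 2 pools), a log2 difference of 1.36 (SE 0.37), with an adjusted p of 0.297 in limma and an unadjusted p of 0.0081. TE was 1.02 and 0.92 in the old pools and 0.62 and 0.56 in the young pools, with a log2 difference of 0.72 (SE 0.82) and an adjusted p of 0.878 in limma. With equal sums the differences were 0.45 in input and 0.72 in HA, neither with an unadjusted p under 0.05, and 0.27 in TE. After quantile normalization the differences in HA and TE were 0.69 and 0.17, and without young pool 1 that in input was 0.38. No 36-base window of the longest Atrx transcript occurs in another annotated gene (introns were not searched). The gene is on chromosome X (GRCm38, 105797615 to 105929403, minus strand), and reads on its introns were counted as well. Of the 3 genes annotated as overlapping it (Gm14853, Gm23656 and Gm26020), 0 are listed in either table.

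Daxx encodes the H3.3 chaperone that partners ATRX and was chosen for description after its values were seen. Its input level was 20.5 and 12.3 CPM in the old pools and 27.4 and 36.2 CPM in the young pools. Its HA level was 27.3 and 11.8 CPM in the old pools and 80.2 and 53.8 CPM in the young pools, so every old pool lay below every young pool in both fractions, in the direction opposite to Atrx. Mean HA was 19.5 ± 11 CPM in old and 67.0 ± 18.7 CPM in young oocytes (SD, n = 2 pools). The log2 difference in HA was -1.81 (SE 0.96) with an adjusted p of 0.464 in limma, and TE was 1.34 and 0.954 in old against 2.93 and 1.48 in young pools. Old pool 2 was the lowest library in each fraction.

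H3f3a and H3f3b encode the same replacement histone H3.3. H3f3b had 61.9 and 72.2 CPM of input in the old and 49.2 and 33.6 CPM in the young pools, and 63.9 and 120.0 against 61.6 and 35.4 CPM in HA. H3f3a had 2.22 and 4.45 CPM of input in the old and 14.0 and 4.76 CPM in the young pools, and 2.23 and 3.59 against 12.9 and 4.78 CPM in HA. The old pools were thus above the young for H3f3b and below them for H3f3a in both fractions, although for H3f3a most of the gap was in young pool 1, and the higher order of H3f3b in HA was lost with equal sums. Per kb of exon the mean input level was 18.2 CPM for H3f3b and 1.82 CPM for H3f3a. Of the 36-base windows of H3f3a, 31.3% occur in other annotated genes (53 genes), against 11.9% for H3f3b (4 genes), and reads from such windows may be dropped or assigned elsewhere.

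**Figure D2:**
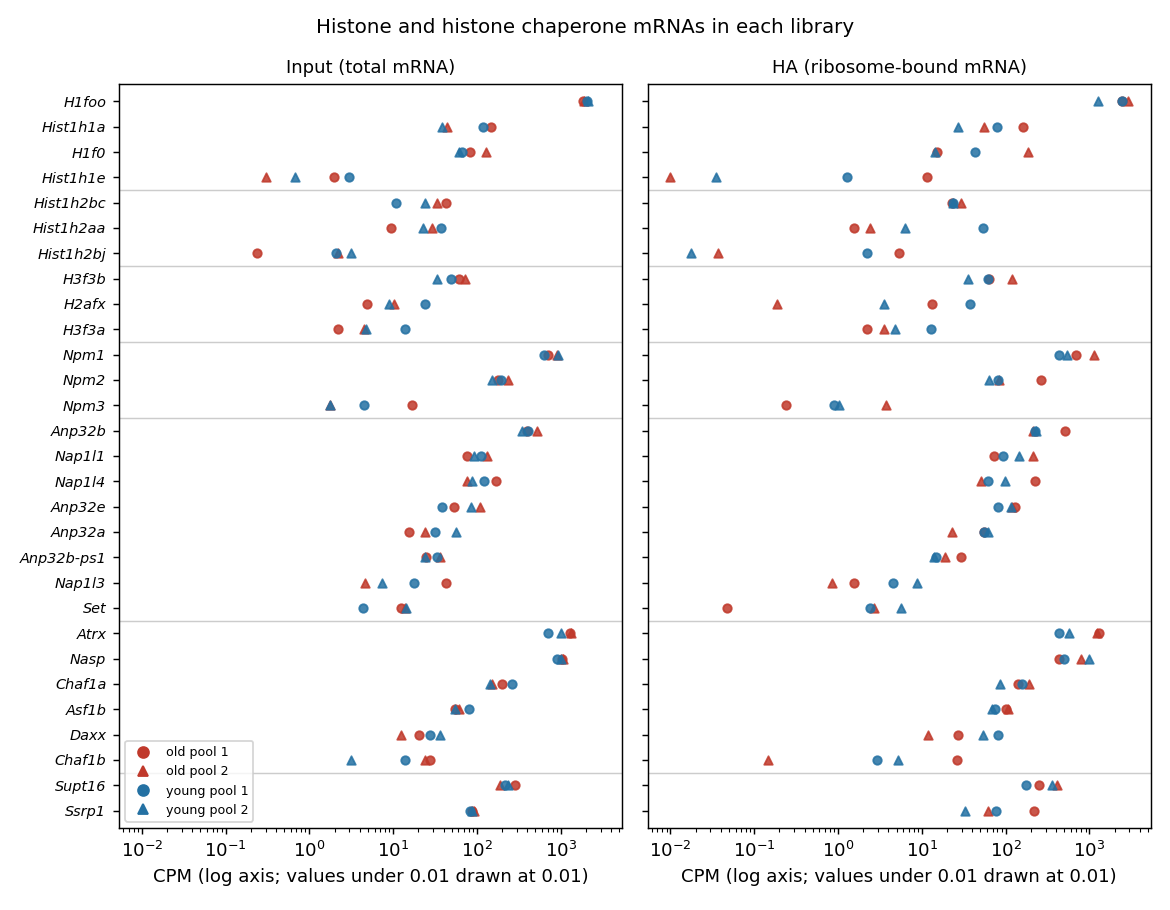
CPM of each member (log axis, with values under 0.01 CPM drawn at 0.01) is plotted for input and HA, with red for old and blue for young pools. H1foo lies furthest right in every library, and Hist1h1e, Hist1h2bj, H2afx, Chaf1b, Set and Hist1h2aa spread over the widest range among pools in HA.

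The linker histones were led by H1foo, which encodes the oocyte-specific H1 that replaces somatic H1 in oocytes. H1foo had 1830.3 and 1883 CPM of input in the old and 2038 and 2119 CPM in the young pools, and it was the member with the highest CPM in each library, with 26.2% to 46.4% of the summed CPM of all members. In HA it had 2466 and 2865 CPM in the old and 2482 and 1279 CPM in the young pools, so young pool 1 lay inside the range of the old pools and young pool 2 stood apart. Mean HA was 2665 ± 282 CPM in old and 1880.1 ± 851 CPM in young oocytes (SD, n = 2 pools), with a log2 difference of 0.58 (SE 0.41) and an adjusted p of 0.646 in limma. That difference turned to -0.06 with equal sums and to -0.13 after quantile normalization, and was 1.06 without young pool 1 and 0.10 without young pool 2. The H1foo TE of 1.35 and 1.52 in old and 1.22 and 0.604 in young pools again turned on young pool 2. Per kb of exon, H1foo had 1638 CPM in input, more than any other member.

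Hist1h1a, which encodes a replication-dependent H1, varied between pools of the same age more than between ages. Its input was 147 and 44.0 CPM in the old and 117 and 38.8 CPM in the young pools, and its HA was 162 and 55.6 CPM against 78.9 and 26.7 CPM. Pools rich in Hist1h1a input were also rich in its HA, and the ratio was steady within an age, with a TE of 1.10 and 1.26 in old and 0.673 and 0.688 in young pools. The log2 difference in TE was 0.78 (SE 0.77), with an adjusted p of 0.861 in limma. H1f0, which encodes the replacement linker histone of non-dividing cells, had 82.8 and 128 CPM of input in old and 66.0 and 61.9 CPM in young pools. Its HA was 15.3 and 187 CPM against 42.6 and 14.3 CPM, so that old pool 2 stood above the other 3 libraries and the ages overlapped. Hist1h1e, whose transcript holds the stem-loop printed above, had 0.301 to 2.95 CPM of input and between 0 reads (old pool 2) and 11.6 CPM (old pool 1) in HA.

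Hist1h2bc, Hist1h2aa and Hist1h2bj were the cluster core histones listed in both fractions, encoding H2B, H2A and H2B proteins, and no cluster H3 or H4 gene was. Hist1h2aa, a germline H2A gene, had 9.33 and 29.2 CPM of input in the old and 36.9 and 22.9 CPM in the young pools. In HA it had 1.54 and 2.44 CPM in the old and 54.2 and 6.38 CPM in the young pools, so both old pools were low and young pool 1 stood far above young pool 2. The log2 difference in HA was -2.77 (SE 1.63), with an adjusted p of 0.529 in limma, and it was -1.32 without young pool 1 and -4.22 without young pool 2. Its HA over input was 0.165 and 0.0835 in old and 1.47 and 0.278 in young pools. Hist1h2bc had 42.6 and 33.1 CPM of input in old and 10.7 and 23.8 CPM in young pools, and 23.2 and 29.7 against 23.3 and 23.3 CPM in HA, where the ages overlapped. Its TE was therefore below the young pools in old oocytes, at 0.544 and 0.897 against 2.17 and 0.98. Hist1h2bj had 0.239 to 3.15 CPM of input and 1 read each in the HA libraries of old pool 2 and young pool 2. Shared sequence was extensive in this class, with 64.0% of the 36-base windows of Hist1h2bj, 33.7% of those of Hist1h2bc and 27.3% of those of Hist1h2aa also found in other genes.

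H2afx encodes H2A.X, the variant phosphorylated at DNA breaks. It had 4.85 and 10.3 CPM of input in the old and 23.7 and 8.99 CPM in the young pools. Its HA level was 13.3 and 0.185 CPM against 37.5 and 3.56 CPM, so both ages had 1 high and 1 low pool.

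The nucleoplasmins are chaperones of the oocyte nucleus. Npm2 is the maternal form that decondenses sperm chromatin, and Npm1 encodes the abundant nucleolar protein. Npm1 had 707 and 893 CPM of input in the old and 638 and 935 CPM in the young pools, which overlapped. The HA libraries held 699 and 1132 CPM in the old and 437 and 548 CPM in the young pools, both old pools above both young. The log2 difference in HA was 0.86 (SE 0.42), with an adjusted p of 0.412 in limma, and it was 0.22 with equal sums, where the ages overlapped in HA, and 0.19 after quantile normalization. Without old pool 2 it was 0.51, and without old pool 1 it was 1.21. TE was 0.988 and 1.27 in old and 0.685 and 0.586 in young pools. Of the 36-base windows of Npm1, 44.3% occur in other annotated genes, 14 in number.

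Npm2 had 179 and 233 CPM of input in the old and 196 and 150.3 CPM in the young pools. Its HA level was 264 and 82.8 CPM against 81.5 and 62.8 CPM, so that old pool 1 was high and old pool 2 lay close to young pool 1. Npm3, which encodes a broadly expressed relative of Npm2, had 1.77 to 16.9 CPM in input and 0.238 to 3.73 CPM in HA with no order by age. Npm2 shares no window with other genes but overlaps Xpo7 on the genome, and the counting did not use strand. Summed over the class, HA was 963 and 1218 CPM in old and 519 and 612 CPM in young pools, 1.93 times as high in old oocytes, and with equal sums 1.23 times as high.

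**Figure D3:**
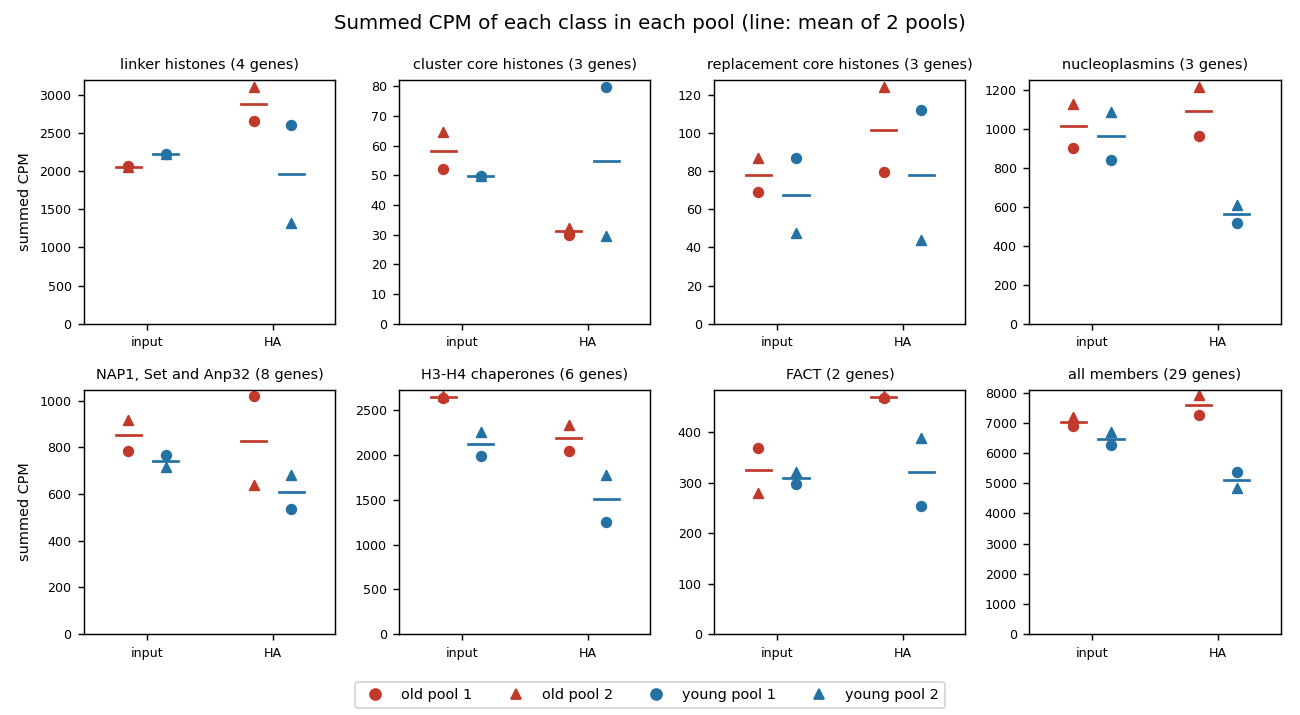
The CPM of the members of each class was summed in each pool (points) and averaged over 2 pools (lines), for input and HA, with red for old and blue for young. The nucleoplasmin sum in HA was 1.93 times as high in old as in young pools and the sum of all members 1.49 times, and with equal library sums these became 1.23 and 0.954 times. The cluster core histone sum in HA was lower, at 0.568 times (0.359 with equal sums). It was 30.0 and 32.2 CPM in old and 79.8 and 29.7 CPM in young pools.

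Summed over all 29 members, input was 6880 and 7187 CPM in old and 6259 and 6696 CPM in young pools (1.09 times), and HA was 7258 and 7927 CPM in old and 5353 and 4850 CPM in young pools (1.49 times). As a share of the reads of each HA library, however, the members made up 0.651% and 0.567% in old and 0.694% and 0.583% in young pools, a ratio of 0.954. The higher sum in the deposited CPM therefore came with the scaling factors of the libraries and not with a larger share of reads. Whether the scaling or the share gives the better comparison was not tested. In input the shares were 0.659% and 0.658% for the old pools, against 0.718% and 0.666% for the young pools.

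Among the other H3-H4 chaperones, Nasp encodes the chaperone that protects the soluble H3-H4 pool. Nasp had 1049 and 1059.7 CPM of input in the old and 909 and 1003 CPM in the young pools, so the old pools lay close together and above the young, an order lost with equal sums. In HA it had 430 and 789 CPM in the old and 498 and 994 CPM in the young pools, which overlapped. With equal sums both old pools lay below both young pools in HA and in TE. After quantile normalization Nasp was the only member with an unadjusted p under 0.05 in HA in limma, lower in old oocytes. No member passed there after adjustment. Its TE was below 1 in each pool (0.409 and 0.745 in old, 0.548 and 0.991 in young).

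Chaf1a and Chaf1b encode subunits of CAF-1, which deposits H3-H4 behind replication forks, and Asf1b encodes a chaperone that hands H3-H4 to CAF-1 and HIRA. Asf1b had 55.3 and 61.4 CPM of input in the old and 80.0 and 54.6 CPM in the young pools, and 102 and 108 against 75.3 and 68.5 CPM in HA. Its input overlapped between ages, while both old pools were higher in HA and in TE (1.84 and 1.76 against 0.941 and 1.25), an order lost in both with equal sums. Chaf1a had 197 and 153 CPM of input in the old and 262 and 143 CPM in the young pools, and 139 and 191 against 156 and 86.9 CPM in HA. Of its windows 46.8% are shared with 10 other genes, among them the overlapping gene Ubxn6. Chaf1b, named after its values were seen, had 27.3 and 24.1 CPM of input in old and 14.0 and 3.15 CPM in young pools, whereas its HA ranged from 0.148 CPM (old pool 2) to 26.1 CPM (old pool 1). Hira, the core of the complex that deposits H3.3 with UBN proteins, was listed only in HA, with 0 reads in old pool 2 and at most 2.46 CPM (young pool 1).

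Of the NAP1, Set and Anp32 proteins, which bind H2A-H2B or H3-H4 and in part act as histone-masking factors, the 4 most abundant overlapped between ages in input. Anp32b had 391.6 and 523 CPM of input in old and 411 and 349 CPM in young pools, and 508 and 210.0 against 223 and 232 CPM in HA, where old pool 1 was high and old pool 2 lay below both young pools. Nap1l1 had 76.3 and 132 CPM of input in old and 112 and 93.6 CPM in young pools, and 72.2 and 211 against 93.3 and 146 CPM in HA. Nap1l4 had 168 and 76.7 CPM of input in old and 120.0 and 87.6 CPM in young pools, and 226 and 50.9 against 61.1 and 98.2 CPM in HA. For Nap1l1 and Nap1l4 the old pools thus lay on either side of the young pools in both fractions.

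Anp32e, whose product removes the H2A.Z variant from nucleosomes, had 53.1 and 108 CPM of input in old and 38.9 and 85.6 CPM in young pools. Its HA level was 129 and 121 CPM against 81.0 and 115 CPM, both old pools above the young with the deposited CPM and not with equal sums. It and H3f3b were the 2 members with HA over input above 1 in every pool. The other 4 members of the class had means under 50 CPM, and Nap1l3 and Set are named after their values were seen. Among these 4, Anp32b-ps1 is annotated as a processed pseudogene, with 43.4% of its windows found in other genes, Anp32b among them. Nap1l3 had 1.57 and 0.85 CPM in old and 4.51 and 8.74 CPM in young HA libraries, both old pools below both young, while its input ran from 4.59 CPM (old pool 2) to 43.3 CPM (old pool 1). Set, which encodes a protein phosphatase inhibitor that also binds histones, had 12.3 and 13.8 CPM of input in old and 4.35 and 14.4 CPM in young pools, and 0.0475 and 2.66 CPM in old against 2.42 and 5.64 CPM in young HA libraries, where old pool 2 lay between the young pools. The HA value of old pool 1 rests on 2 reads. Set and Nasp had HA over input below 1 in every pool, and 38.9% of the windows of Set occur in other annotated genes.

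FACT moves H2A-H2B aside for polymerases and is made of SUPT16 and SSRP1. Supt16 had 283 and 187 CPM of input in old and 215 and 233 CPM in young pools, and 251 and 410.1 against 176 and 356 CPM in HA. Ssrp1 had 86.9 and 93.1 CPM of input in old and 82.8 and 88.6 CPM in young pools, with an SD of 4.39 and 4.10 CPM. In HA Ssrp1 had 217 and 62.2 CPM against 77.6 and 32.9 CPM, so both subunits had HA levels that overlapped between ages. Of the Supt16 windows, 21.4% are shared with the overlapping gene Rpgrip1.

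**Figure D4:**
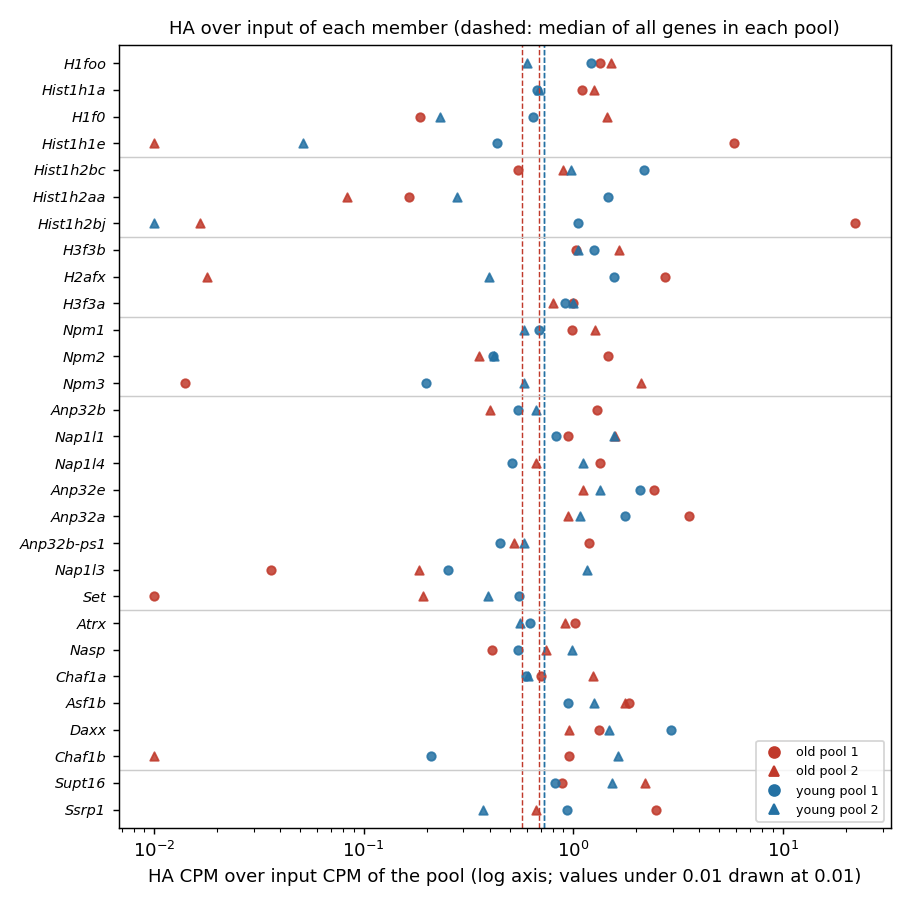
HA CPM over input CPM is plotted for each member and pool (log axis, values under 0.01 drawn at 0.01), with dashed lines at the median of all genes in each pool. In the old pools the members' medians were 1.03 and 0.897 and lay right of the medians of all genes (0.687 and 0.572).

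The HA and input tables were normalized separately, so the level of HA over input carries no test. The members' median was 1.03 for old pool 1, 0.897 for old pool 2, 0.685 for young pool 1 and 0.664 for young pool 2. All genes with a value had medians of 0.687, 0.572, 0.729 and 0.724 in the same pools, so the members lay above all genes in the old pools and slightly below in the young. Genes averaging 10 CPM or more had medians of 0.803, 0.75, 0.739 and 0.733 in the same order, closer to the members in the old pools. HA over input was above 1 in every pool for 6.90% of members against 8.14% of all genes, and below 1 in every pool for 6.90% against 24.5%. In 10 of 29 members (34.5%) the pools of each age differed in the same direction in HA and input, against 27.7% of all genes.

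The TE of members with CPE motifs was described separately because CPEs act on translation in maturation. The 16 members with a motif had a median log2 difference in HA of 0.36 and the 11 with a 3′-UTR but no motif had 0.48. In TE these medians were 0.25 and 0.32.

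**Figure D5:**
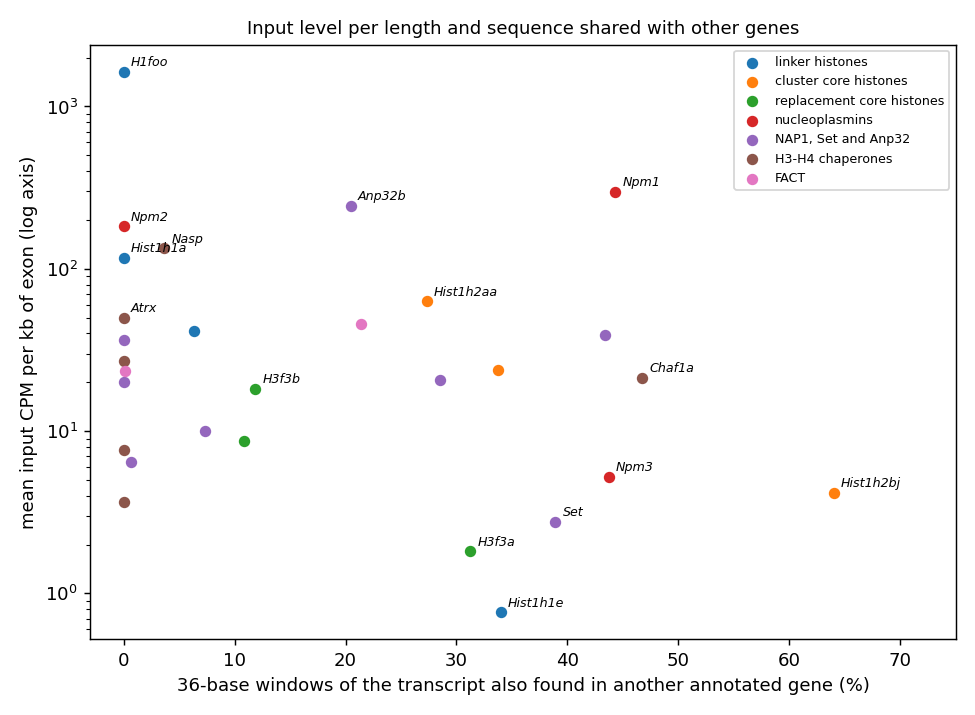
Mean input CPM per kb of exon (log axis) is plotted against the percentage of 36-base windows of the longest transcript found in another annotated gene, for the 29 members, coloured by class. H1foo lies at 1638 CPM per kb with no shared windows, while Hist1h2bj has 64.0% of its windows shared and 4.17 CPM per kb.

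Per kb of exon, the mean input level was 1638 CPM for H1foo, followed by 298 CPM for Npm1, 244 CPM for Anp32b, 183 CPM for Npm2, 134 CPM for Nasp and 117 CPM for Hist1h1a. Npm1 and Anp32b, like Npm2 and Nasp, had neighbouring levels, and no test of their order was made. The lowest levels were 1.82 CPM for H3f3a and 0.766 CPM for Hist1h1e. Of the 6 lowest members 5 (Hist1h1e, H3f3a, Set, Hist1h2bj and Npm3) share over 30% of their windows with other genes, and what this contributes to their low level was not tested. Random as well as poly(T) primers were used, so mRNAs without a tail could enter the libraries.

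Genes that process histone mRNA or work with the chaperones were read from a list of 38, of which 36 were listed in input and 33 in HA. At an unadjusted p of 0.05 in limma, 1 was lower in input (2.78% of those listed, against 6.18% of all genes), 3 were higher and 1 lower in HA (12.1% against 14.7%), and 1 was higher and 1 lower in TE (6.06% against 6.56%). After adjustment 0 passed in limma or in edgeR's quasi-likelihood test, and 0 passed with any tool in input. On the recovered HA reads 2 passed edgeR's likelihood ratio test (Cpsf3 and Casp8ap2, 6.06% against 3.32% of all genes) and 1 passed DESeq2 (Cpsf3, 3.03% against 5.82%). Slbp, which encodes the stem-loop binding protein, had 464 and 576 CPM of input in old and 426 and 439 CPM in young pools. Its HA was 1777 and 2206 CPM in old and 1058 and 1028 CPM in young pools, with a log2 difference of 0.92 (SE 0.34) and an adjusted p of 0.308 in limma, and the difference was 0.28 with equal sums and 0.18 after quantile normalization.

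Casp8ap2, which encodes FLASH, a factor for the 3′ end of histone mRNA, had 595 and 1541 CPM in old and 176 and 228 CPM in young HA libraries. The log2 difference was 2.25 (SE 0.55), with an adjusted p of 0.297 in limma, and in TE it was 1.92 with an adjusted p of 0.724. The difference in HA was 1.611 with equal sums, 1.564 without old pool 2 and 2.935 without old pool 1. Ubn2, a partner of HIRA, had 636 and 503 CPM in old and 140 and 168 CPM in young HA libraries (log2 difference 1.88, SE 0.44, and 1.24 with equal sums), with an adjusted p of 0.297 in limma. For Casp8ap2 and Ubn2 both old pools exceeded both young pools, while their input overlapped between ages. Cpsf3, the endonuclease that cuts histone pre-mRNA and polyadenylated pre-mRNA, had 0.428 and 0.85 CPM in old and 42.4 and 43.6 CPM in young HA libraries. Its input was 34.8 and 35.3 CPM in old and 63.8 and 59.7 CPM in young pools, so the gap between ages was wider in HA, with an adjusted p of 0.297 in limma for HA and 0.724 for TE. The adjusted p for HA was 0.046 in edgeR's likelihood ratio test and 0.00012 in DESeq2 for Cpsf3, and 0.046 and 0.050 for Casp8ap2. Vps72, which encodes an H2A.Z chaperone, was the gene lower in input, with 23.6 and 5.02 CPM in old and 71.1 and 32.7 CPM in young pools, and an adjusted p of 0.778 in limma. Its log2 difference was -2.02, and it was -1.01 without old pool 2 and -3.04 without old pool 1.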

How the data were processed

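RNA-Seq of 8 libraries (4 pools, HA and input) was used. The authors trimmed reads (Trimmomatic 0.36), aligned them with HISAT2 to GRCm38 (mm10), counted them per gene without strand and including introns (HTSeq, GENCODE M11), and deposited CPM signal values after TMM normalization, separately for HA and input. By their Methods, genes had to reach 10 CPM in 2 or more libraries, which 36.6% of genes in the HA table and 35.7% in the input table do not meet. All deposited values (100%) were multiples of 1 read within 0.01, which gave back the reads.

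Old and young pools were compared with limma on log2(CPM + 1) (lmFit, eBayes with trend, two-sided, Benjamini-Hochberg over all genes of a table), which was also tested on simulated data. TE was fitted on log2(HA CPM + 1) minus log2(input CPM + 1). Changes of low genes are understated on this scale. Replicates are pools the labels call replicates. The members, gene lists and motifs were chosen with earlier results of these data known. In each class the 4 members with the highest mean CPM were named, and any with an unadjusted p under 0.05. The search for shared 36-base windows and the pool order with equal sums were added after seeing the data. Sequences and coordinates come from GENCODE M21, which held 99.8% of the genes. The fits ran under R 4.3.3 with limma 3.58.1, with DESeq2 1.42.0 and edgeR 4.0.16 as alternatives, and the rest under Python 3.11.15 (matplotlib 3.10.9, numpy 2.4.6, pandas 2.3.3). There was no untagged control library among the samples used, so background binding in HA was not measured.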

Additional observations from a re-analysis of the deposited data

How the results depend on the processing

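The comparisons rest on 2 pools per age, and members with few reads (0 to 5 in an HA library for Hist1h1e, Hist1h2bj, Set, Chaf1b and H2afx) were close to the limit of 3 reads. The median log2 difference of members in input turned to -0.0942 with the same sum per library and to -0.0021 after quantile normalization, and ranged from -0.0799 (without young pool 2) to 0.103 when each pool was left out. In HA it turned to -0.154 with the same sum and ranged from 0.247 to 0.413 over pools left out. In TE it turned to -0.135 with the same sum, was 0.17 after quantile normalization, and ranged from 0.0153 (without old pool 1) to 0.617 (without old pool 2). H1foo in HA turned to -0.134 after quantile normalization and -0.0635 with the same sum. The cause was not tested, beyond the TMM factors given in the results.

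The number of members with an unadjusted p under 0.05 in input fell from 1 to 0 without the eBayes trend, with edgeR's likelihood ratio test and with the same sum, and was 0 to 1 over pools left out. In HA it was 0 without the trend, 2 with the likelihood ratio test, and ranged from 0 (without young pool 1) to 7 (without old pool 2, and 5 without old pool 1) over pools left out. In TE it ranged from 0 to 2. With the replicate block, limma called 2 members in HA (Atrx and Npm1), 1 in input and 0 in TE, but old and young pools with the same number shared only that number (correlation of their deviations 0.079 in HA, 0.027 in input and 0.011 in TE). The share of all genes called is not given without the trend, with the same sum or with the block, so those counts have no background. With all pools kept, Atrx in HA lost its unadjusted p under 0.05 with DESeq2, without the trend, after quantile normalization and with the same sum. In input Atrx lost it without the trend, with the likelihood ratio test and with the same sum. The sign of Atrx in HA and in input was the same in each of the 15 alternatives.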
